A study of Sporobolus alterniflorus and Setaria viridis with 12 samples.

Results

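Of the 15218 gene IDs measured, 239 kept a moderate leaf level that stayed within a 2-fold band in both salt-treated grasses. They were selected on the measured values themselves. A gene was taken if each of its 12 values was at least 10 and below 100 FPKM, and if its highest value was at most 2 times its lowest among the 6 libraries of Setaria viridis and also among the 6 libraries of Spartina alterniflora. FPKM is the number of fragments assigned to a gene, scaled for the gene's length and for the library's total of fragments. Because all 12 values entered this choice, low variation is what defines these 239 genes and is not a finding about them. The counts, levels and differences below describe how they vary inside those limits.

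RNA came from mature leaves of S. viridis (green foxtail), a C4 grass model for the laboratory, and S. alterniflora, a cordgrass of salt marshes, named Sporobolus alterniflorus in the organism field. The 4 groups were S. viridis control, S. viridis under NaCl, S. alterniflora control and S. alterniflora under NaCl, with 3 libraries each. The S. alterniflora plants were 2 months old when moved to hydroponic culture, and S. viridis was grown in soil before hydroponics under the same day length and temperature, with its age not stated. The protocol gives 250 mM NaCl to S. viridis and 50 mM to S. alterniflora, while the column headers pair 50 with S. viridis and 250 with S. alterniflora. Doses are therefore uncertain, and if the headers carry exchanged species codes, the species below are exchanged too. The headers' letters A, B and C name the libraries within each group. The labels do not say whether these are different plants. Each p-value therefore sets a difference between groups only against the spread of libraries within groups, and that spread may be technical.

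Salt confronts a leaf with less available water and with sodium and chloride ions, and many transcripts shift in response. Genes whose transcript level stays steady through such a treatment serve as internal references in quantitative PCR, and the classical ones encode basic cell machinery such as actin, tubulin, ubiquitin and translation factors. Whether any of the 239 genes belongs to those families is not known here, since the files pair 0 IDs with a gene name. For the same reason the leaf label could not be checked against leaf marker genes, and no role is given for any gene. FPKM is a share of a library's fragments, scaled for gene length, so an unchanged value means an unchanged share of fragments. It need not be an unchanged share of total FPKM. In bulk leaf RNA, fewer cells of a type and less RNA per cell cannot be told apart.

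Total FPKM per library had its minimum of 510410 in salt library A of S. viridis and its maximum of 915944 in control library C of S. alterniflora. FPKM holds no read number, which leaves the depth unknown. The upper quartile of genes above 0 was 19.4 to 23.7 FPKM in S. viridis and 14.4 to 17.4 FPKM in S. alterniflora, with the lowest in the same control library C. The 239 genes together made up 1.12% to 1.49% of total FPKM in the S. viridis libraries and 0.770% to 1.27% in those of S. alterniflora.

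The level window alone held 791 genes in all 12 libraries, which is 5.20% of the table. Of these, 417 stayed within the 2-fold band in S. viridis and 414 in S. alterniflora, 239 in both and 199 in neither. Among the 417 genes steady in S. viridis, 57.3% were also steady in S. alterniflora, compared with 46.8% of the 374 genes that were not. Across the 791 genes the highest-to-lowest ratios of the species were only loosely related (Pearson's r of log2 ratios 0.12, Spearman's rho 0.11). These are descriptions across genes that share the same libraries, and no test was made of them.

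**Figure D1:**
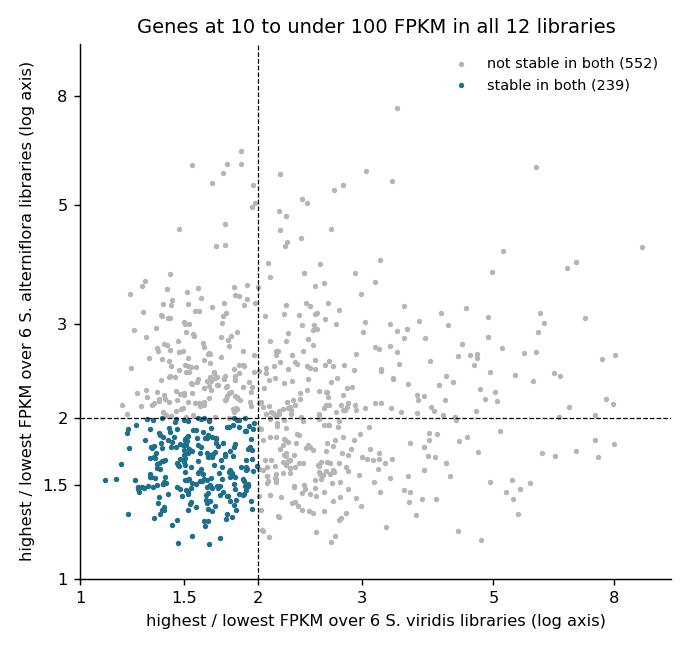
Highest FPKM divided by lowest FPKM over the 6 libraries of each species, on log axes, for the 791 genes at 10 to under 100 FPKM in all 12 libraries. Dashed lines mark the limit of 2, and the 239 genes in the lower left corner are those described here.

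The limit cut through a continuous cloud of genes. Just inside it in S. viridis were Sevir.5G119000 with a ratio of 1.991 and Sevir.5G340200 with 1.966, and just outside were Sevir.3G219300 with 2.005 and Sevir.5G232700 with 2.006. In S. alterniflora, Sevir.2G124200 and Sevir.7G240800 lay inside at 1.999 each, whereas Sevir.5G063300 at 2.001 and Sevir.1G302500 at 2.009 lay outside. At the window's lower end, Sevir.8G169800 had a lowest value of 10.01 FPKM and Sevir.4G292300 one of 10.02 FPKM, while Sevir.9G251600 at 9.97 and Sevir.4G080100 at 9.9 FPKM were left out. At its upper end, Sevir.7G267200 reached 98.8 FPKM and Sevir.2G151300 97.5 FPKM, while Sevir.2G124600 at 100.2 and Sevir.8G036700 at 102.6 FPKM were left out. Genes on either side of these limits differed by little. Ratios from 1.9 to 2 were found for 22 of the 239 genes in S. viridis and for 29 in S. alterniflora.

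Most of the 239 genes had levels in the lower and middle part of the window, as did most genes of the window itself. Their mean over all 12 libraries was below 20 FPKM for 54 genes, from 20 to under 50 FPKM for 154 and 50 FPKM or more for 31. The median gene of the 239 had a mean of 25.2 FPKM in S. viridis, with a range of 10.9 to 84.0. In S. alterniflora it was 29.6 FPKM, with a range of 12.1 to 83.7. Within a library these values placed the median member at the 79.6th to 82.0th percentile of all IDs in S. viridis and at the 85.4th to 87.5th in S. alterniflora.

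The median highest-to-lowest ratio was 1.58 in S. viridis, with a range of 1.10 to 1.99, and 1.62 in S. alterniflora, with a range of 1.16 to 1.999. Ratios of at most 1.5 held for 85 genes in S. viridis, for 71 in S. alterniflora and for 23 in both. The spread inside groups was uneven. The median coefficient of variation over the members, the SD of the 3 libraries as a percentage of their mean, was 6.55% in S. viridis controls. It was 16.0% under salt in S. viridis, 15.8% in S. alterniflora controls and 15.8% under salt. The 552 genes of the window that are not members were also least spread in S. viridis controls. Their medians were 9.16% there and 24.3%, 21.9% and 23.9% in the same order of groups. For 59 genes in S. viridis and 74 in S. alterniflora, the highest and the lowest library belonged to the same group.

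Across both species, 81 of the 239 genes stayed within a 2-fold band over all 12 libraries, and 173 within a 3-fold band. The steadiest of all was Sevir.8G169800, a gene at the bottom of the window. It measured 10.66, 10.01 and 10.87 FPKM in S. viridis control libraries A, B and C and 10.41, 12.04 and 11.55 FPKM under salt. Its S. alterniflora values were 14.22, 13.58 and 13.69 FPKM in controls and 11.7, 10.76 and 11.55 FPKM under salt. Its 12 values spanned 1.42-fold. The S. viridis groups overlapped, and within S. alterniflora each salt library was below each control.

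Sevir.9G051200 measured 15.62, 14.53 and 12.72 FPKM in S. viridis controls and 13.06, 15.15 and 16.19 FPKM under salt. In S. alterniflora its values were 15.99, 19.21 and 16.08 FPKM in controls and 17.55, 12.95 and 17.37 FPKM under salt. Salt and control values were interleaved in both species, over a total span of 1.51-fold. Sevir.3G236500 had nearly equal S. viridis means of 30.8 FPKM in controls and 30.9 FPKM under salt. It measured 31.23, 30.49 and 30.81 FPKM in S. viridis controls and 24.26, 31.27 and 37.19 FPKM under salt, with 1 salt library below the controls and the others above. The S. alterniflora groups overlapped, at 35.68, 36.85 and 28.73 FPKM in controls and 26.68, 35.83 and 36.6 FPKM under salt.

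Among the 31 members with a mean of 50 FPKM or more, Sevir.6G098100 had the smallest span, 1.52-fold. Its values were 80.61, 67.45 and 73.59 FPKM in S. viridis controls and 60.66, 88.29 and 68.79 FPKM under salt. In S. alterniflora they were 75.47, 80.17 and 57.97 FPKM in controls and 61.73, 86.04 and 65.38 FPKM under salt. All 4 group means fell between 71.05 and 73.9 FPKM, and in every group the libraries differed from each other by more than the group means did. Sevir.1G384600 measured 44.14, 43.3 and 44.27 FPKM in S. viridis controls and 52.23, 45.66 and 54.27 FPKM under salt. Values in S. alterniflora were 58.29, 66.33 and 44.71 FPKM in controls and 65.61, 49.95 and 52.33 FPKM under salt. Its S. viridis salt libraries all lay above the controls, and its S. alterniflora groups overlapped.

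Sevir.9G312200 shows that a narrow span over 12 libraries need not mean equal groups. It measured 45.63, 41.44 and 42.52 FPKM in S. viridis controls and 57.81, 59.39 and 62.22 FPKM under salt, without overlap. In S. alterniflora it measured 47.07, 61.8 and 40.45 FPKM in controls and 59.99, 48.94 and 46.46 FPKM under salt, where the groups overlapped. Its S. viridis salt difference was 0.46 ± 0.19 (log2 difference of FPKM + 1 ± SE) and did not pass (limma, adjusted p = 0.0708).

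**Figure D2:**
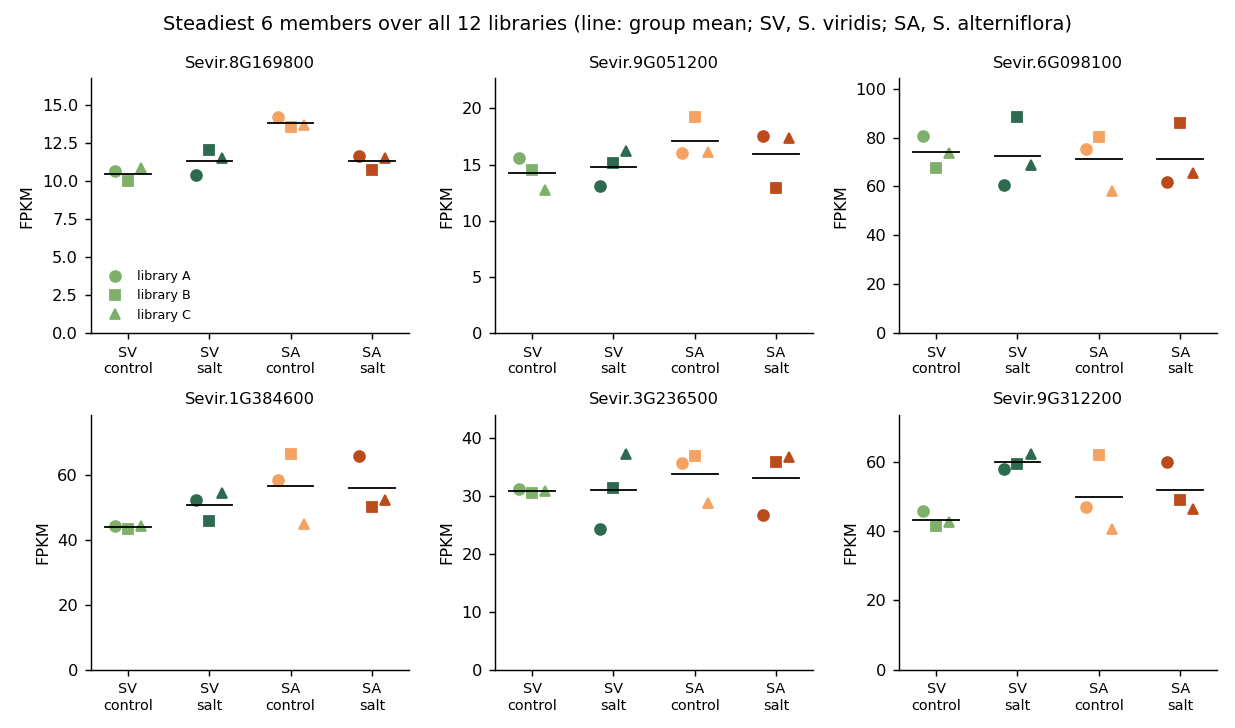
FPKM of the 6 members with the smallest span over all 12 libraries, by group, on axes that start at 0. Each point is 1 library, with circles for A, squares for B and triangles for C, and lines are group means; the spans run from 1.42-fold for Sevir.8G169800 to 1.54-fold for Sevir.9G312200.

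Particular libraries set the limits for many members. S. alterniflora control library C held the lowest value of its species for 113 of the 239 genes, and S. viridis salt library A for 78. S. viridis salt library C held the highest value for 85 genes and the lowest for 8. S. alterniflora salt library B held the highest value for 63 and the lowest for 58. The median member deviated from its own species mean by -0.23 (log2) in S. alterniflora control library C and by 0.17 in S. viridis salt library C, and by at most 0.10 in size in the other libraries. Over all 791 genes of the window the corresponding medians were -0.26 and 0.21. Control library C of S. alterniflora also had the highest total FPKM and the lowest upper quartile, and the part of that in its low member values was not tested.

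Applying the same limits to 11 libraries at a time showed how each library, when it took no part in the choice, treated genes picked by the others. Without S. alterniflora salt library B, 379 genes met the limits, and 63.1% of them still did when that library was added. The same share was 72.4% of 330 genes for S. alterniflora control library C, 73.1% of 327 for S. viridis salt library A and 84.5% of 283 for S. viridis salt library B. For each of the remaining 8 libraries it was between 93.4% and 96.8%. The losses had a direction in some libraries. Of the 91 genes lost to S. alterniflora control library C, 82 lay below the range of the other 5 libraries of the species. Of the 88 lost to S. viridis salt library A, 78 lay below. Of the 140 lost to S. alterniflora salt library B, 52 lay above and 88 below.

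**Figure D3:**
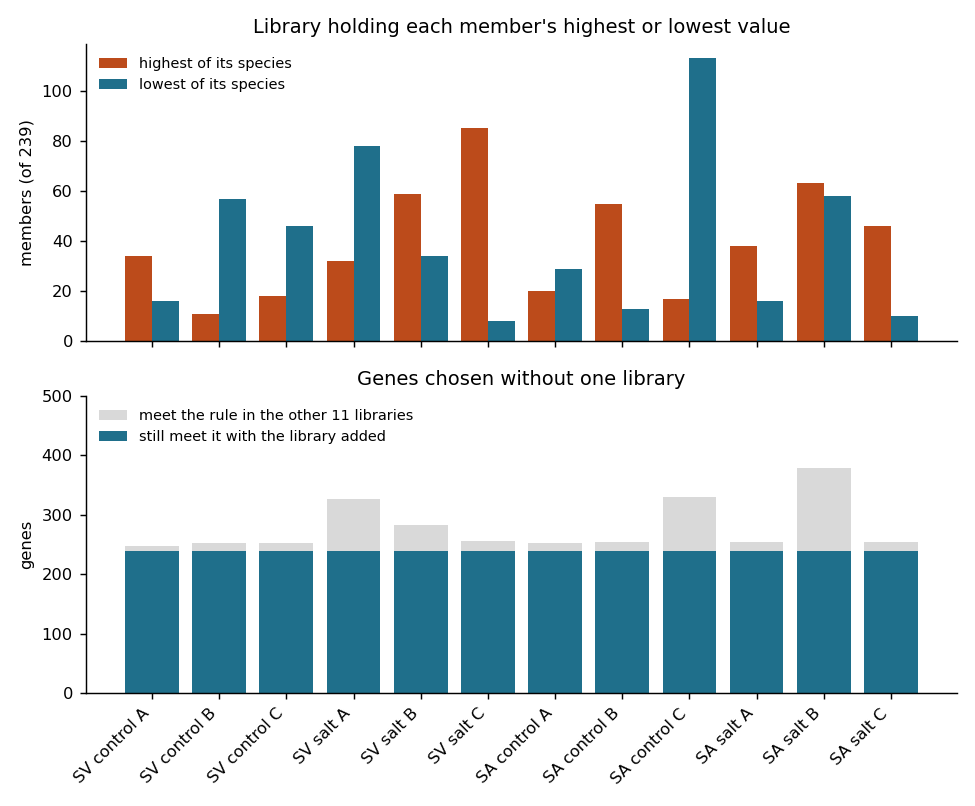
Top, the number of the 239 genes for which a library held the highest (orange) or the lowest (blue) FPKM among the 6 of its species. Bottom, genes that met the limits in the other 11 libraries (grey bar, full height) and those that still met them with the named library added (blue, 239 in each case); the largest loss was with SA salt library B, from 379 genes. SV is S. viridis and SA is S. alterniflora.

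In S. viridis, salt left the mean of 120 of the 239 genes within 1.2 times the control mean. For 19 genes the salt mean was more than 1.5 times the control mean, up to 1.71 times, and for 0 genes it was lower by that factor, the lowest salt mean being 0.671 of its control mean. The salt mean was the higher one for 147 genes and the lower one for the remaining genes. The 3 salt libraries lay entirely above the 3 controls for 74 genes and entirely below for 25. Among all 11266 genes tested in this species, 30.8% lay entirely above and 34.6% entirely below. The members' shares are shaped by the limits that chose them, and nothing is read from the comparison.

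The name given to these genes, stable under salt, holds only in the sense of the 2-fold band. limma, fitted on the whole table, called 22 of the 239 genes higher under salt in S. viridis and 0 lower at a Benjamini-Hochberg adjusted p under 0.05. Over all tested genes 52.5% were called, 25.4% higher and 27.1% lower. The 22 differences ran from 0.53 to 0.74 (log2 of FPKM + 1), and for all 22 genes the groups did not overlap. The median difference was 0.12 over the 239 genes and -0.12 over all tested genes. With a common upper quartile these medians were 0.01 and -0.21. With 1 control library fewer, 1 member was called without A, 0 without B and 0 without C. Before adjustment 14, 9 and 12 members were below 0.05, where the complete set had 41. Over all tested genes, 5510 of 11250, 5446 of 11267 and 5617 of 11255 were below it, and 6670 of 11266 with the complete set. Calls fell over the whole table too, from 52.5% of tested genes to 36.5%, 34.7% and 37.1%. Without salt library C, 29 members were called higher and 14 lower, beside 62.6% of all tested genes in either direction. With libraries scaled to a common upper quartile the split was 13 higher and 12 lower, and with a common median 20 and 8. Over all genes it was 2660 higher and 3754 lower of 11131 with the upper quartile, and 2771 and 3546 of 11116 with the median. As deposited it was 2859 and 3054 of 11266. The lack of lower calls among the members thus depended on the scaling, which moved the split over all genes too. With no filter on low genes, 44 members were called higher and 2 lower, beside 38.8% of all genes.

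Sevir.4G292300 had the largest rise among the members on the log2(FPKM + 1) scale, while by ratio of means Sevir.8G022000 was the highest at 1.71 and Sevir.4G292300 had 1.70. It went from 34.56, 34.65 and 34.28 FPKM in control libraries to 60.05, 65.41 and 50.46 FPKM under salt, a difference of 0.74 ± 0.20 (log2 ± SE; limma, adjusted p = 0.0170). In S. alterniflora it was low and its groups overlapped, at 10.02, 16.71 and 12.15 FPKM in controls and 15.47, 12.31 and 13.59 FPKM under salt. Sevir.8G022000 rose from 16.12, 14.64 and 14.91 FPKM to 28.11, 23.79 and 25.99 FPKM, by 0.73 ± 0.18 (limma, adjusted p = 0.0132). With any 1 control library left out, the difference of Sevir.4G292300 was 0.74 each time and did not pass. That of Sevir.8G022000 was 0.71 to 0.77 and passed only without control library A.

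The members with the most negative differences did not pass. Sevir.5G013600 measured 40.2, 38.43 and 38.37 FPKM in S. viridis controls and 24.71, 20.59 and 33.27 FPKM under salt, a difference of -0.58 ± 0.23 (limma, adjusted p = 0.0643). Sevir.3G158300 measured 33.36, 27.65 and 32.3 FPKM in controls and 17.29, 22.25 and 23.09 FPKM under salt, a difference of -0.56 ± 0.21 (limma, adjusted p = 0.0531). For both genes every salt library lay below every control. Both passed with upper quartile scaling, at -0.69 and -0.66, with median scaling, at -0.63 and -0.61, and without salt library C, at -0.76 and -0.63.

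In S. alterniflora the salt and control means of the members were closer. The salt mean was within 1.2 times the control mean for 168 of the 239 genes, and it ran from 0.700 to 1.52 of the control mean. It was more than 1.5 times the control mean for 2 genes and lower by that factor for 0. The salt mean was the higher one for 152 genes. The groups overlapped for 204 genes, while salt libraries lay entirely above the controls for 24 and entirely below for 11. Over all 11330 tested genes 14.7% lay entirely above and 7.01% entirely below. limma called 0 members, with a smallest adjusted p of 0.306, where 1.62% of all tested genes were called, 1.43% higher and 0.194% lower. An unadjusted limma p under 0.05 was found for 2 members and for 1670 of the 11330 tested genes. The median difference was 0.08 (log2 of FPKM + 1) over the members and 0.06 over all tested genes. With a common upper quartile they turned to -0.05 and -0.04. A p that misses the threshold does not show that the groups were equal.

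Sevir.1G012400 had the largest positive difference in S. alterniflora. It measured 25.65, 30.62 and 32.2 FPKM in controls and 48.66, 46.21 and 39.96 FPKM under salt, a difference of 0.59 ± 0.23 (limma, adjusted p = 0.306). Its S. viridis values were 18.24, 18.69 and 19.06 FPKM in controls and 24.01, 23.5 and 28.35 FPKM under salt, so in both species each salt library lay above each control. Sevir.1G144700 measured 29.51, 37.02 and 29.23 FPKM in S. alterniflora controls and 48.12, 51.05 and 43.55 FPKM under salt, a difference of 0.57 ± 0.23 (limma, adjusted p = 0.327). Its S. viridis groups overlapped, at 28.45, 24.75 and 25.39 FPKM and 18.64, 27.59 and 21.52 FPKM.

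The most negative difference belonged to Sevir.3G164400. It measured 42.09, 43.52 and 32.9 FPKM in S. alterniflora controls and 33.55, 23.73 and 27.7 FPKM under salt, a difference of -0.47 ± 0.26 (limma, adjusted p = 0.446), and the groups overlapped. In S. viridis it stood higher, at 82.44, 86.64 and 88.35 FPKM in controls and 54.34, 75.31 and 68.62 FPKM under salt, without overlap. Sevir.7G142500 measured 13.75, 15.29 and 20.55 FPKM in S. alterniflora controls and 11.2, 12.49 and 11.22 FPKM under salt, a difference of -0.45 ± 0.25 (limma, adjusted p = 0.455). Its S. alterniflora groups did not overlap. In S. viridis it measured 36.65, 36.86 and 30.41 FPKM in controls and 27.53, 40.62 and 43.35 FPKM under salt, with overlap.

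The salt differences of the species can be put side by side. The salt mean was above the control mean in both species for 97 genes, below in both for 37, above in S. viridis only for 50 and above in S. alterniflora only for 55. Across the 239 genes Pearson's r of the log2 ratios was 0.07 and Spearman's rho 0.05, given as a description, since all genes share the same 12 libraries. Groups overlapped in both species for 119 members, 49.8% of them, and for 30.6% of the 12529 genes averaging 1 FPKM or more over all libraries. Salt lay entirely above control in both species for 7 members, 2.93% of them, and for 6.22% of those genes. It lay entirely below in both for 1 member, 0.418%, and for 3.18% of those genes. The members' shares are shaped by the limits that chose them, the first being above the share over all genes and the others below. Nothing is read from this. Of the 22 genes called in S. viridis, the S. alterniflora groups overlapped for 19, and salt lay entirely above for 2 and entirely below for 1. Over all genes tested in S. alterniflora the shares were 14.7% above and 7.01% below, and nothing is read from so few genes.

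**Figure D4:**
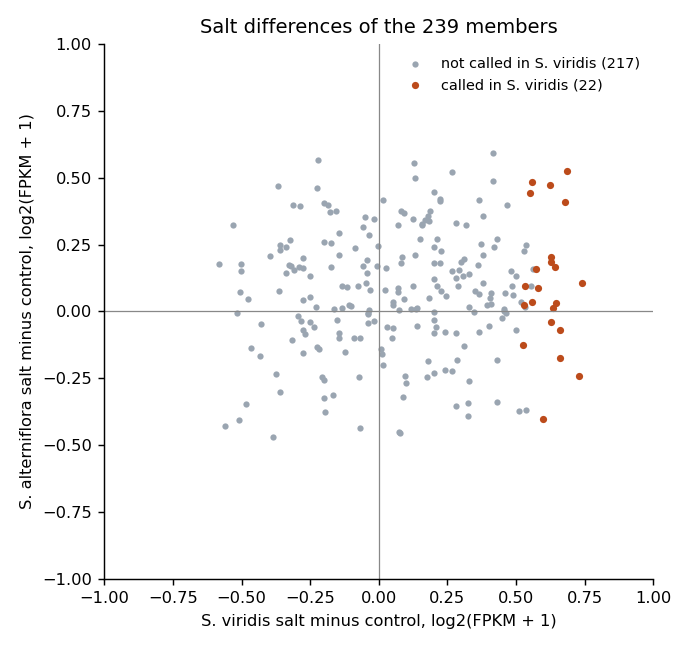
Salt minus control difference of each of the 239 genes in S. viridis (x axis) and S. alterniflora (y axis), in log2(FPKM + 1); orange points are the 22 genes called higher in S. viridis by limma. Points spread from -0.58 to 0.74 on the x axis and from -0.47 to 0.59 on the y axis, and the orange points lie on both sides of 0 on the y axis.

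In an interaction model on the 12 libraries, the salt effect was larger in S. viridis than in S. alterniflora for 2 members and smaller for 0 (limma, adjusted p under 0.05). Of all 12529 genes tested, 24.2% were called, 10.7% with the larger effect in S. viridis and 13.4% with the smaller. The 2 members are Sevir.8G022000 and Sevir.2G320200, the second of them named here after its values were seen. Sevir.2G320200 measured 25.24, 22.19 and 23.71 FPKM in S. viridis controls and 36.44, 33.92 and 38.94 FPKM under salt. S. alterniflora values were 18.22, 19.62 and 15.22 FPKM in controls and 15.17, 12.7 and 11.58 FPKM under salt. Salt lay entirely above control in one species and entirely below in the other, and the difference of effects was 1.00 ± 0.29 (log2 ± SE; limma, adjusted p = 0.0280).

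Sevir.8G022000 measured 83.69, 88.75 and 65.75 FPKM in S. alterniflora controls and 72.35, 58.97 and 68.96 FPKM under salt, with overlap, against its rise in S. viridis. The difference of effects was 0.97 ± 0.30 (limma, adjusted p = 0.0339). These values were bounded by the choice of genes, and neither interaction call held in every fit. The call of Sevir.8G022000 was lost without S. viridis salt library A, at 0.91. No call was left, with 0 members, without any 1 of the 3 S. viridis controls, without S. alterniflora salt library C, or without S. alterniflora control library A or B. Over all genes, 15.7% to 20.4% were called in those 6 fits. Without S. viridis salt library C, 7 members and 31.2% of all genes were called. With upper quartile scaling 3 members had the larger effect in S. viridis and 2 the smaller, and with median scaling 2 and 2. Over all genes, 24.4% and 24.3% were called under those scalings.

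The rule limited the distance between the species only through the window. In controls, 59 members were called higher in S. viridis and 75 higher in S. alterniflora (limma, adjusted p under 0.05). Over all 12134 genes tested 72.3% were called, 39.5% higher in S. viridis and 32.8% lower. The members' counts are a description within that limit. The S. viridis minus S. alterniflora differences ran from -2.51 to 2.02 (log2 of FPKM + 1), with a median of -0.09 over the members and 0.16 over all genes. Scaling moved both: with a common upper quartile they were -0.43 and -0.17, and 25 members were called higher and 119 lower in S. viridis. Of all 12254 genes tested in that fit, 4140 were called higher and 4883 lower. Relative to the median of all genes the members' median was -0.25 as deposited and -0.26 with the upper quartile. Scaling shifts all genes nearly alike, so these had to be close. The value was -0.03 with no filter on low genes and -0.37 with a filter at a mean of 5 FPKM. It thus depended on which genes were compared.

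Under salt, 33 members were called higher in S. viridis and 53 lower (limma, adjusted p under 0.05), where 61.8% of 12445 tested genes were called, 31.9% higher and 29.9% lower. The total of 86 members fell to 54 without S. alterniflora salt library A and to 48 without C, while the share of all genes called fell to 55.0% and 53.1%. With upper quartile scaling 18 were called higher and 81 lower in S. viridis, beside 3441 and 4452 of all 12434 genes tested. The median over all genes moved from 0.02 to -0.29. Called higher in S. viridis both without and with salt were 26 genes, 44.1% of the 59 and 78.8% of the 33. Called higher in S. alterniflora in both were 49 genes, 65.3% of the 75 and 92.5% of the 53. The sign under salt was the same for 58 of the 59 and for 73 of the 75. The band ties salt to control within a species, so this sharing follows in part from the choice of genes. It was not counted over all tested genes, and nothing particular to the members is read from it. In the values as deposited, all 6 S. viridis libraries lay above all 6 of S. alterniflora for 41 members, 17.2% of them, and for 23.5% of the 12529 genes. The reverse held for 59 members, 24.7% of them, and for 21% of those genes. With upper quartile scaling, chosen for this count after its values were seen, the numbers were 19 and 104 members, beside 20.04% and 26.05% of those genes. Species means were within 1.2 times of each other for 55. Across members the log2 species means had a Pearson's r of 0.35 and a Spearman's rho of 0.35, inside a range that the window restricts.

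Sevir.3G320100 had the largest species difference, and also the widest span of all 239 genes, 9.36-fold. It measured 14.34, 12.84 and 10.77 FPKM in S. viridis controls and 10.2, 13.42 and 14.37 FPKM under salt, but 69.42, 95.48 and 66.4 FPKM in S. alterniflora controls and 87.96, 91.05 and 91.67 FPKM under salt. The control difference was -2.51 ± 0.20 (log2 ± SE; limma, adjusted p = 3.59e-05), and the salt groups of each species overlapped their controls. Sevir.8G022000, given above, was next in that direction at -2.30 ± 0.17 (limma, adjusted p = 2.47e-05).

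In controls, Sevir.5G119000 had the largest difference toward S. viridis. Over all 12 libraries the ratio of species means was larger for Sevir.4G292300, at 3.48 against 3.39. Sevir.5G119000 measured 47.87, 51.42 and 60.81 FPKM in S. viridis controls and 34.05, 33.62 and 66.93 FPKM under salt. Its salt library C lay above every control, and A and B below every control. Its S. alterniflora groups overlapped, at 11.76, 13.97 and 11.34 FPKM in controls and 17.77, 18.46 and 13.76 FPKM under salt. The control difference between species was 2.02 ± 0.17 (limma, adjusted p = 4.27e-05). Sevir.3G338500 followed with 1.88 ± 0.24 (limma, adjusted p = 0.000334). It measured 52.94, 51.71 and 60.89 FPKM in S. viridis controls and 39.4, 31.24 and 46.11 FPKM under salt, without overlap, against 11.87, 11.7 and 20.37 FPKM and 12.81, 16.66 and 15.62 FPKM in S. alterniflora.

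**Figure D5:**
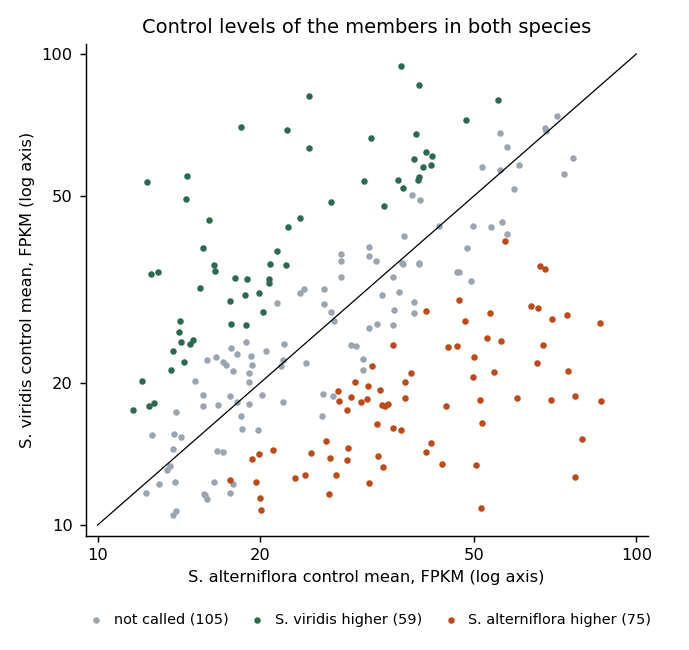
Mean control FPKM of each of the 239 genes in S. alterniflora (x axis) and S. viridis (y axis), 3 libraries each, on log axes with the line of equal values. Green points are the 59 genes called higher in S. viridis and orange points the 75 called higher in S. alterniflora by limma.

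Which genes met the limits depended on how the libraries were scaled, through the level window as well as through the ratios. When the limits were applied after scaling libraries to a common upper quartile, 282 genes met them, among them 201 of the 239, which is 84.1% of the members and 71.3% of the 282. Scaling to a common median of genes at 1 FPKM or more gave 266 genes, among them 199 members. Rescaling each library to TPM, which gives all libraries the same sum and lifts every level, gave 210 genes and kept 83 members, 34.7% of them. On that scale 107 of the members exceeded a ratio of 2 in S. alterniflora and 42 in S. viridis. The upper quartile scaling left 11 and 4 above it, and the median scaling 4 and 8. Any other member lost under a scaling had a value outside the window and kept its ratios within the limit. The steadiest gene, Sevir.8G169800, with a lowest value of 10.01 FPKM, passed 2 of the 4 scalings. All 4 scalings, the deposited one included, were passed by 66 of the 239 genes. Among the steadiest 6, Sevir.9G051200 and Sevir.3G236500 passed all 4.

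The members were spread over the genome. In S. viridis gene IDs the digit before the G is the chromosome number, and all 9 chromosomes held members, from 8 on chromosome 8 to 34 on chromosome 3. Members made up 2.59% of the 1005 IDs of chromosome 6 and 1.13% of the 2836 IDs of chromosome 9, with the remaining chromosomes between 1.22% and 1.78%. These shares are counts without a test. In the order of the IDs listed, 3 pairs of members were direct neighbours: Sevir.2G299000 with Sevir.2G299200, Sevir.7G056700 with Sevir.7G056800, and Sevir.9G311000 with Sevir.9G311300. Sevir.2G299000 had means of 33.9 FPKM in S. viridis and 53.1 FPKM in S. alterniflora, and Sevir.2G299200 had 16.7 and 26.4 FPKM. For Sevir.9G311000 the means were 22.8 and 27.2 FPKM, and for Sevir.9G311300 they were 16.8 and 15.8 FPKM. Sevir.7G056700 had a mean of 49.7 FPKM in S. viridis and 17.5 FPKM in S. alterniflora, and Sevir.7G056800 had 14.8 and 15.7 FPKM.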

How the data were processed

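The authors deposited a table of FPKM values with 2 decimals for mature leaf RNA of both species, from paired-end Illumina sequencing, per the labels' protocols. Per the submitters' processing notes, RSEM and edgeR were involved, with neither role nor version stated. The aligner, reference, build, filters and the route by which S. alterniflora reads reached Setaria IDs remain not given in the sources used here, so IDs with near-identical copies are uncertain. Columns were assigned to groups, not to numbered samples, and all were used. The limits were applied to the FPKM as deposited. Fits used limma 3.58.1 in R 4.3.3 on log2(FPKM + 1), with eBayes and a trend, two-sided, over genes whose mean in the compared libraries was 1 FPKM or more, adjusted over all of them. On this scale folds of low genes are understated. All 239 members passed that filter. The fits were also run on simulated data with planted changes of 2-fold or more. The members' salt differences within a species were smaller, so that run does not bear on them. Other steps used Python 3.11.15, pandas 2.3.3 and matplotlib 3.10.9. Named genes are the 6 with the smallest span, the 2 largest differences each way for each salt comparison and between species in controls, and those nearest each limit. Sevir.2G320200 was added for its interaction call. Gene lists by product name could not be used. The members, lists and tests were chosen with earlier results of these data known. Alternatives are given at the end.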

Additional observations from a re-analysis of the deposited data

Results flagged for a closer look

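The interaction model on the 12 libraries called 2 of the 239 genes, beside 24.2% of all 12529 genes tested, for a salt effect that differed between species. Both calls were lost without any 1 of the S. viridis controls, without S. alterniflora salt library C and without S. alterniflora control library A or B. The difference, S. viridis minus S. alterniflora, was 1.00 (log2) for Sevir.2G320200 and 0.97 for Sevir.8G022000. No group had more than 3 libraries, so no search for outlying libraries within a group was made.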

How the results depend on the processing

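With a ratio limit of 1.5, 23 genes met the rule, and 581 did with a limit of 3. A window of 5 to under 200 FPKM gave 518, and limiting only the ratio of group means gave 638. Leaving out single libraries gave 247 to 379 genes. The S. viridis salt calls among members were 46 with no filter (38.8% of all genes tested), 14 in one fit over all 12 libraries (42.1%) and 0 to 43 with a library left out (34.7% to 62.6%). Interaction calls were 5 with upper quartile scaling (24.4%), 4 with median scaling (24.3%) and 0 to 7 with a library left out (15.7% to 31.2%). Species calls under salt were 48 to 81 with a library left out (53.1% to 61.9%). With median scaling, chosen after seeing the data, all S. viridis libraries lay above all of S. alterniflora for 20 members and below for 107. The shares over all genes averaging 1 FPKM or more were 19.67% and 26.83%. The letters in the column names could not be matched to the replicate numbers of the labels. Same-letter deviations correlated by -0.05 to 0.03 and different-letter ones by -0.14 to 0.11. With 3 libraries per group these values cannot show whether the letters pair libraries, and that remains unknown. With the letter as a replicate block, 2 members were called for S. viridis salt (49.0% of all genes), 0 for the interaction (20.6%) and 55 between species under salt (60.1%). The members' median S. alterniflora salt difference turned from 0.08 to -0.05 with upper quartile scaling, as 1 of 42 alternatives of such medians, the remaining 41 keeping their sign. Of 206 alternatives for single named differences, 178 kept direction and side of the threshold, 20 no longer passed it, 8 newly passed and 0 changed direction. All 20 losses fell on the S. viridis salt calls of Sevir.4G292300 and Sevir.8G022000 and on the interaction calls of Sevir.8G022000 and Sevir.2G320200. The differences were named for their size or their call, so a kept direction says little. The causes were not tested. Read depth is unknown.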
